A study of Homo sapiens with 9 samples.

Results

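The SNF2 family of chromatin remodelling ATPases was examined in NCI-H1993, a human lung adenocarcinoma line, after silencing of *TDRD9*, a germline RNA helicase gene with a Tudor domain. The family was taken as 30 genes given by name, chosen with earlier results of these data known. Each gene was read through the array probe sets that match it and no other gene. This gave 102 probe sets out of 49293 tested, which between them represent 18132 genes. The 9 cultures fell into 3 groups of 3, namely siControl, siTDRD9-1 and siTDRD9-2. All of them, controls included, were unsorted NCI-H1993 cells given an siRNA for 72 hours, and each culture was hybridised to 1 Affymetrix PrimeView array. The siRNAs of siTDRD9-1 and siTDRD9-2 target *TDRD9* at different sequences, whereas siControl received a control siRNA. A single line was studied, and knockdown by siRNA lowers a transcript without removing it.

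SNF2 proteins are motors that use ATP to move along DNA. By pulling DNA over the histone core they slide, evict or edit nucleosomes, and several of them instead push other proteins off DNA or reverse stalled replication forks. Many work as the engine of a large complex, such as BAF, NuRD, INO80 or the ISWI complexes, and mutations of *SMARCA4*, *SMARCA2* and *ATRX* are known in tumours, those of lung among them for *SMARCA4*.

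Values are log2 signals after robust multi-array averaging, so a difference of 1 is a 2-fold change. A probe set passed when its adjusted p in limma, by the Benjamini-Hochberg method over all probe sets, was under 0.01 (an FDR of 0.01). It was called at 2-fold when its change was also at least 2-fold. The brightest probe set of a gene is the one whose average across the 9 arrays was highest. Signals of different probe sets are not comparable, so only changes are set side by side.

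*TDRD9* itself read 6.65, 6.80 and 6.93 on the siControl arrays, 4.94, 4.64 and 4.28 with siTDRD9-1, and 6.12, 6.12 and 6.06 on those of siTDRD9-2. The 3 groups did not overlap. The transcript stood at 22.1% of siControl with siTDRD9-1 (log2 -2.18, adjusted p = 2.22e-05) and at 61.7% with siTDRD9-2 (log2 -0.70, adjusted p = 0.00931). The second of these calls was lost on leaving out any 1 siControl array, any 1 siTDRD9-2 array or replicate 2 of siTDRD9-1, with values from -0.63 to -0.77. Epithelial keratins, *EPCAM*, *CDH1* and *MET* were bright (11.6 to 13.4 in siControl). The lung markers *NKX2-1*, *NAPSA*, *SFTPB* and *SFTPC* lay between 5.2 and 6.6, the leukocyte gene *PTPRC* at 3.8 and *VIM* at 9.5. The labels give another cell line's name in the extraction text and a whole-transcript kit in the labelling text, and the sample titles were followed here.

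The labelling controls moved with the groups. The poly-A spike-ins, bacterial RNAs added before labelling, averaged 8.35 ± 0.13 in siControl, 7.60 ± 0.19 in siTDRD9-1 and 7.66 ± 0.10 in siTDRD9-2 (SD, n = 3 each). Their 3′ minus 5′ difference was 1.25 to 1.57 on siControl arrays and 0.99 to 1.17 on the other 6 (two-sided exact permutation p = 0.0119, the smallest that 6 against 3 arrays allows). The 3′ minus 5′ difference of *GAPDH* averaged 0.14, -0.09 and -0.10 in the same order. That of the actin control averaged 0.57, 0.29 and 0.34, but overlapped. It ran from 0.37 to 0.70 on siControl arrays and from 0.24 to 0.43 on the others. Labelling and treatment cannot be told apart where every siControl array lies on 1 side. With the spike-in 3′ minus 5′ difference as a covariate, 0 of the 102 probe sets passed with either siRNA in limma. Over all probe sets that fit passed 1 with siTDRD9-1 and 0 with siTDRD9-2, so the loss was not particular to the family. Of the 102, 10 with siTDRD9-1 and 13 with siTDRD9-2 had an unadjusted p under 0.05, and the share over all probe sets was not counted. In bulk cells, too, fewer cells expressing a gene and less RNA per cell cannot be told apart.

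Most of the family did not pass. With siTDRD9-1, 7 of the 102 probe sets rose and 3 fell, against 2.41% up and 2.12% down over all probe sets. With siTDRD9-2, 8 rose and 0 fell in limma, against 2.95% and 2.23%. At an unadjusted p under 0.05 there were 17 up and 17 down after siTDRD9-1 (10.8% and 12.6% over all probe sets), and 26 up and 9 down after siTDRD9-2 (12.9% and 12.5%). With array weights 34 passed after siTDRD9-1, 18 up and 16 down, where 18.1% of all probe sets passed, and 18 after siTDRD9-2, 16 up and 2 down, where 11.3% did. In all, 7 probe sets rose with both siRNAs (1.46% over all) and 0 fell with both (0.542%). A rise of at least 2-fold with both was called at 5 probe sets, 3 of *ATRX* and 2 of *ERCC6L2*, against 0.325% of all probe sets. The study had already listed both genes as upregulated on these arrays, and the members were chosen with earlier results known. The count was therefore not independent of the choice of members and is no support for a rise of the family. The 7 rises belong to *ATRX*, *ERCC6L2*, *CHD4* and *CHD7*, and for none of these 4 genes did the brightest probe set pass. The count with siTDRD9-1 went from 10 to 6 without siControl replicate 2, without siControl replicate 3 or without siTDRD9-1 replicate 1.

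**Figure D1:**
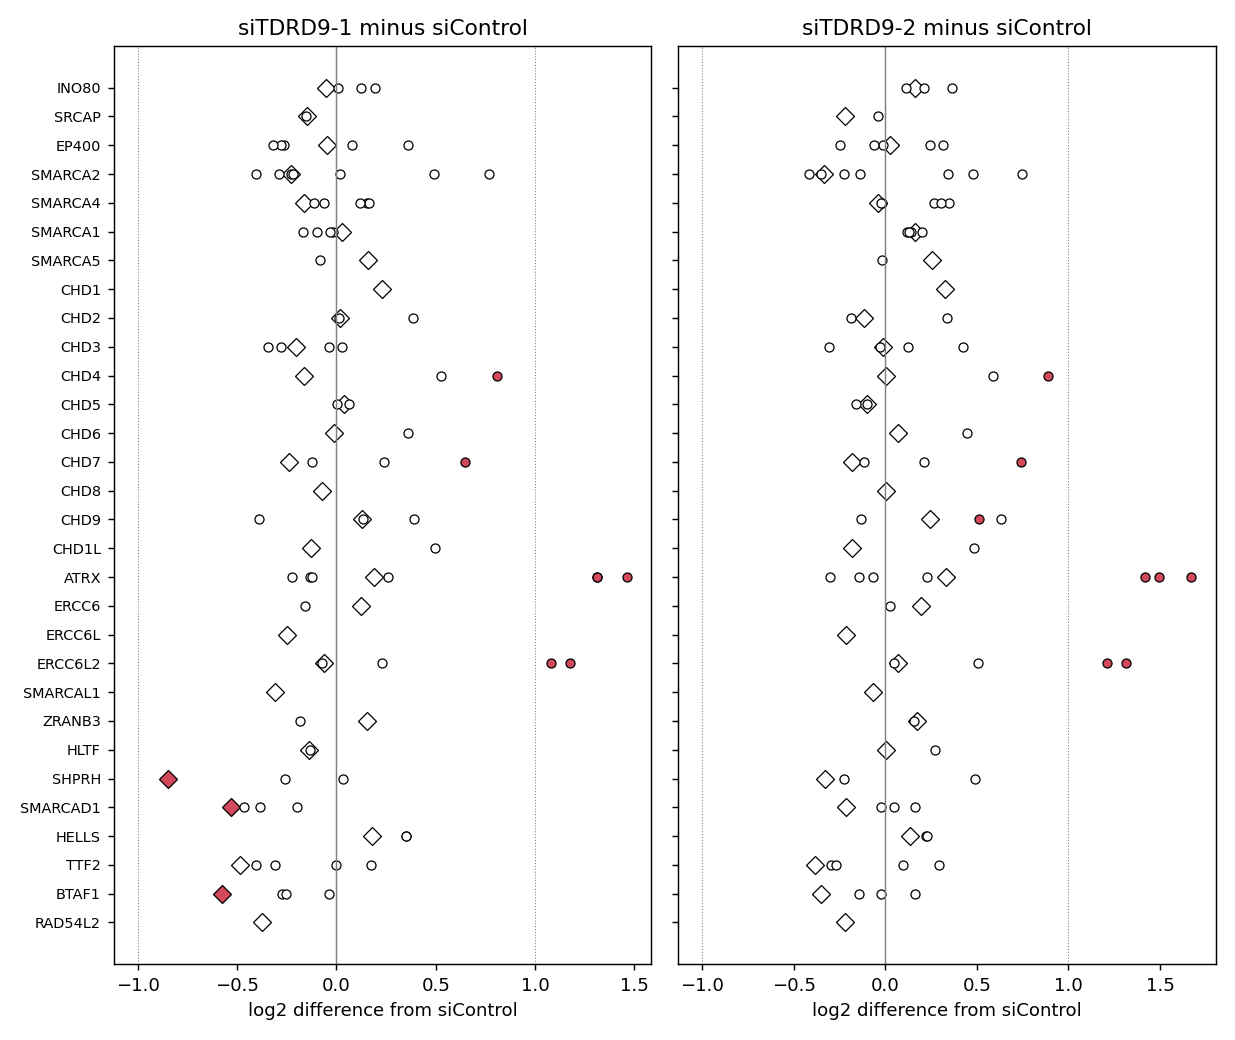
Log2 difference from siControl (horizontal axis) at each single-gene probe set of the 30 genes, for siTDRD9-1 (left) and siTDRD9-2 (right). Diamonds are the brightest probe set of a gene, circles the others, and red marks an adjusted p under 0.01. Dotted lines mark a 2-fold change, which only probe sets of *ATRX* and *ERCC6L2* exceeded, at 1.08 to 1.67.

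At the brightest probe set the picture was different. Of 30 genes 0 rose and 3 fell after siTDRD9-1 (1.25% and 2.8% over all genes), while 0 rose and 0 fell after siTDRD9-2 (1.32% and 3.03%). At an unadjusted p under 0.05 in limma these were 1 up and 7 down with siTDRD9-1 (6.99% and 16.0% over all genes). With siTDRD9-2 they were 3 up and 5 down (7.5% and 16.0%). The median change of the 30 genes was -0.10 with siTDRD9-1 and -0.01 with siTDRD9-2, beside -0.03 and -0.06 over all genes. The other 72 probe sets, which 25 genes have, held all of the rises. Over the whole array the other single-gene probe sets, 26856 in number, also rose more often than they fell. With siTDRD9-1, 843 of them rose and 491 fell, and with siTDRD9-2, 1083 rose and 478 fell. All 6 siTDRD9 arrays lay above the 3 siControl arrays at 14 of the 102 probe sets (7.08% over all) and below them at 8 (7.44%).

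The starts of 2 of the genes with rising probe sets are shown as context for where their transcripts begin. RefSeq (GRCh38.p14) promoter windows, 300 bases around each start, were on hand for 26 of the 30 genes, and not for *ATRX*, *CHD5*, *CHD6* and *CHD7*. Windows are written 5′ to 3′ on the gene's strand, and capitals mark the motifs found.
ERCC6L2, chr9:95875441-95875740, plus strand: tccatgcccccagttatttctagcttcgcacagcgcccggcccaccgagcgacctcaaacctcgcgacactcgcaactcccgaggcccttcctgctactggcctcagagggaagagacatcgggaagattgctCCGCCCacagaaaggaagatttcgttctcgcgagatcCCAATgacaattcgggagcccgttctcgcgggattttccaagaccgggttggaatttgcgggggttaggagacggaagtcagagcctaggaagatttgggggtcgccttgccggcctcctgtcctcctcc
CHD4, chr12:6606402-6606701, minus strand: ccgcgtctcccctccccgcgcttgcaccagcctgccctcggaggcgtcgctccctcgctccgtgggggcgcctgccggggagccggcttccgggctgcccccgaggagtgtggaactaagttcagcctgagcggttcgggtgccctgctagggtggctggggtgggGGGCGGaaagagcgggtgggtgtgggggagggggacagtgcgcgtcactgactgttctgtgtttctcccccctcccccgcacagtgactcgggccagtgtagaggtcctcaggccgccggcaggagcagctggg
Both strands were searched for GGGCGG, the letters of a GC box. They were also searched for the CCAAT box by the letters in its name, and for TATAAA, the letters of a TATA box. The window of *ERCC6L2* held 1 GC box and 1 CCAAT box, and that of *CHD4* 1 GC box, and neither held a TATA box. A GC box stood in 66.7% of the 42 windows of the family and 45% of all 35116 windows, a CCAAT box in 33.3% and 34.6%, and a TATA box in 2.38% and 11.5%. CpG dinucleotides numbered 23 in the *ERCC6L2* window and 24 in that of *CHD4*, with a median of 22 in the family and 14 over all.

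*ATRX*, with its partner DAXX, places histone H3.3 at telomeres and heterochromatin. It has 8 probe sets, and 3 of them rose with both siRNAs. Probe set 11721714_s_at read 7.11, 7.14 and 6.89 in siControl, 8.44, 8.32 and 8.32 in siTDRD9-1, and 8.54, 8.45 and 8.42 in siTDRD9-2. Every siTDRD9 array was above every siControl array, by 2.48-fold with siTDRD9-1 (log2 1.31 ± 0.10 SE, adjusted p = 4.2e-05) and 2.67-fold with siTDRD9-2 (log2 1.42, adjusted p = 2.4e-05). Probe set 11755517_s_at read 4.62, 4.70 and 4.44 in siControl, then 5.90, 5.97 and 5.83, then 6.13, 6.22 and 5.89. Again neither siTDRD9 group overlapped siControl, and the changes were 2.49-fold (adjusted p = 6.79e-05) and 2.82-fold (adjusted p = 2.62e-05).

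The third, 11721718_a_at, was dim and spread in siControl (4.33, 4.14 and 3.45) and read 5.52, 5.25 and 5.54, then 5.45, 5.53 and 5.95. It gave the largest changes of the family, 2.76-fold (adjusted p = 0.00123) and 3.18-fold (adjusted p = 0.000489), with standard errors of 0.21 on the log2 scale. The brightest *ATRX* probe set, 11754247_s_at, read 7.78, 8.03 and 7.70 in siControl, 8.18, 7.96 and 7.94 in siTDRD9-1, and 8.24, 8.17 and 8.10 in siTDRD9-2. Here siControl overlapped siTDRD9-1, and the changes were 0.19 (95% interval -0.05 to 0.43) and 0.33 (0.09 to 0.57), with adjusted p = 0.348 and 0.0712. The other 4 probe sets of *ATRX* had changes from -0.30 to 0.26, none passing. Within this 1 gene the log2 change therefore ran from -0.23 to 1.46 with siTDRD9-1 and from -0.30 to 1.67 with siTDRD9-2.

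*ERCC6L2*, a repair gene linked to DNA end joining and mutated in inherited bone marrow failure, showed the same split. Probe set 11737418_a_at read 4.97, 4.87 and 4.95 in siControl, 6.24, 6.20 and 5.88 in siTDRD9-1, and 6.07, 6.33 and 6.33 in siTDRD9-2. The rise was 2.26-fold (adjusted p = 0.000149) and 2.49-fold (adjusted p = 6.72e-05), with no overlap. Probe set 11748716_a_at went from 4.94, 4.66 and 4.69 to 5.98, 5.93 and 5.61, and to 5.999, 5.98 and 5.93. Its changes were 2.11-fold (adjusted p = 0.00024) and 2.31-fold (adjusted p = 0.000109). The brightest, 11759583_at, read 6.28, 6.39 and 6.47, then 6.14, 6.41 and 6.41, then 6.41, 6.41 and 6.53. These overlapped, at -0.06 (95% interval -0.28 to 0.16) and 0.07 (-0.15 to 0.29). The remaining pair of probe sets changed by -0.07 and 0.23 with siTDRD9-1 and by 0.05 and 0.50 with siTDRD9-2, without passing.

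**Figure D2:**
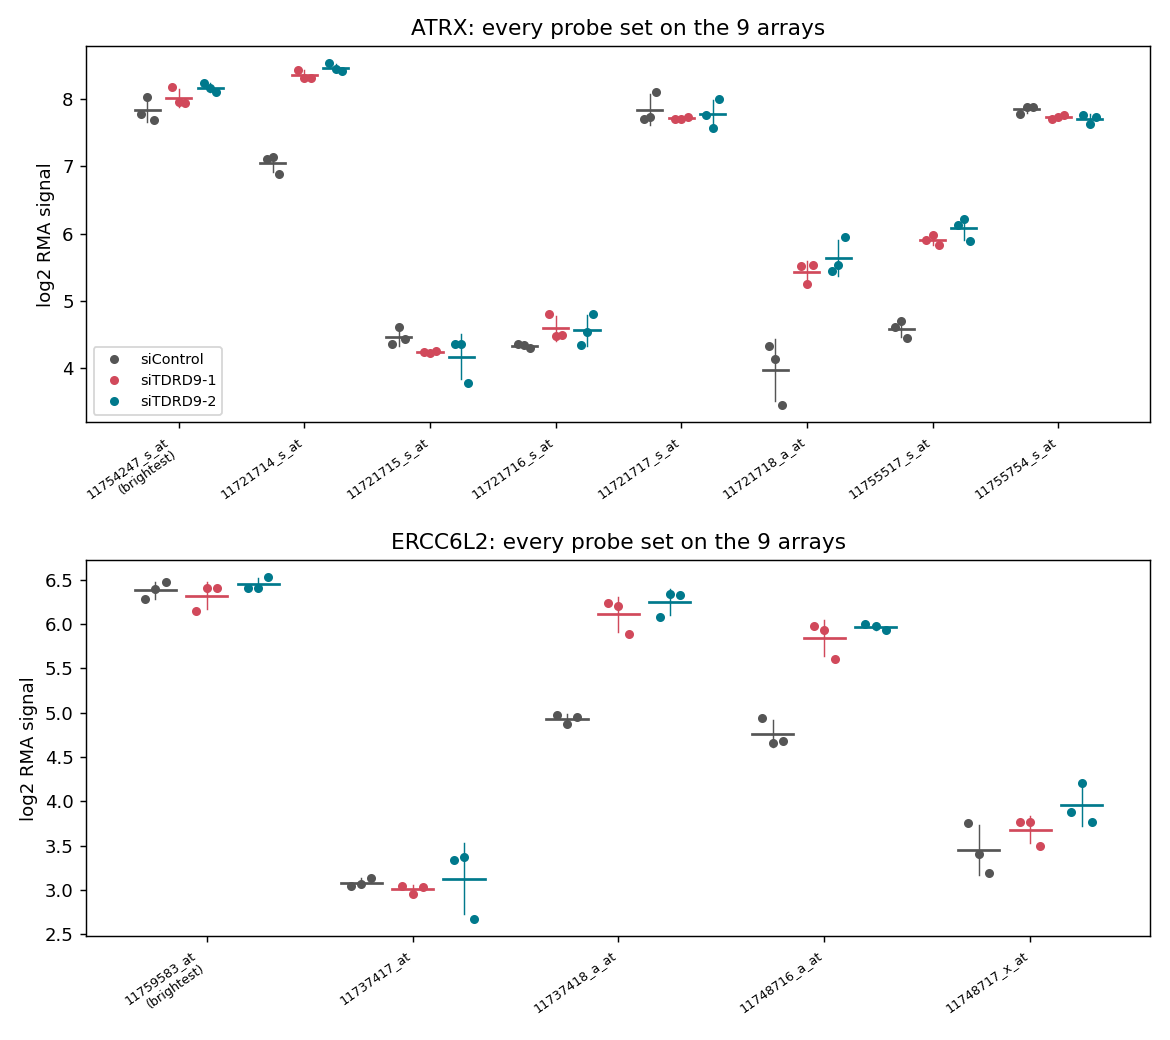
Log2 signal (vertical axis) of each *ATRX* (top) and *ERCC6L2* (bottom) probe set, with 1 point per array, the group mean (bar) and SD (line) for siControl, siTDRD9-1 and siTDRD9-2. At 3 *ATRX* and 2 *ERCC6L2* probe sets the 6 siTDRD9 arrays stand clear of siControl, whereas at the brightest of each gene siTDRD9-1 overlaps siControl.

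Among the alternatives that fitted probe sets singly, both genes lost their 2-fold call in the spike-in covariate fit alone. There 11721714_s_at of *ATRX* changed by 1.27 and 1.37 on the log2 scale (adjusted p = 0.0379 and 0.0492), 11755517_s_at by 1.34 and 1.52 (adjusted p = 0.0488 and 0.0519) and 11721718_a_at by 0.99 and 1.15 (adjusted p = 0.408 and 0.448). The covariate left 11737418_a_at of *ERCC6L2* at 0.90 and 1.01 (adjusted p = 0.117 and 0.113) and 11748716_a_at at 0.77 and 0.87 (adjusted p = 0.167 and 0.17). When all probe sets of a gene were averaged before the fit, *ATRX* rose by 0.51 and 0.58 (adjusted p = 0.00133 and 0.000496) and *ERCC6L2* by 0.47 and 0.63 (adjusted p = 0.00432 and 0.000708), all under 2-fold.

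The relatives of *ERCC6L2* did not pass. *ERCC6*, the CSB protein of transcription-coupled repair, changed by -0.16 to 0.13 with siTDRD9-1 and 0.03 to 0.19 with siTDRD9-2 over 2 probe sets. *ERCC6L*, or PICH, which coats ultrafine DNA bridges in anaphase, changed by -0.25 and -0.22 at its 1 probe set.

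Of the 10 CHD genes, most of whose proteins carry paired chromodomains, *CHD4* and *CHD7* had a probe set that rose with both siRNAs. *CHD4* is the main ATPase of NuRD. Its probe set 11743463_a_at read 8.21, 8.07 and 8.20 in siControl, 9.10, 8.81 and 9.002 in siTDRD9-1, and 9.04, 9.24 and 8.87 in siTDRD9-2. No array overlapped, and the rise was 1.75-fold (log2 0.81 ± 0.12 SE, adjusted p = 0.00128) and 1.85-fold (log2 0.89, adjusted p = 0.000644). Without siTDRD9-1 replicate 1 the first of these had an adjusted p of 0.0101. A second probe set, 11743464_a_at, changed by 0.52 and 0.59 without passing (adjusted p = 0.0257 and 0.0131). The brightest, 11748943_a_at, read 8.77, 8.85 and 9.09, then 8.66, 8.71 and 8.85, then 8.80, 8.76 and 9.17. It overlapped between groups, at -0.16 (95% interval -0.44 to 0.12) and 0.00 (-0.28 to 0.28).

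*CHD7*, a remodeller of enhancers mutated in CHARGE syndrome, gave 5.32, 5.23 and 5.25 in siControl at 11723353_at, 5.82, 5.86 and 6.07 in siTDRD9-1, and 5.76, 6.01 and 6.27 in siTDRD9-2. The 1.56-fold and 1.67-fold rises (adjusted p = 0.00748 and 0.00308) did not overlap siControl. With siTDRD9-1 the call was lost on leaving out any siControl array, any siTDRD9-1 array or siTDRD9-2 replicate 2, with changes of 0.57 to 0.69. With siTDRD9-2 it was lost without siControl replicate 2 or 3 or siTDRD9-2 replicate 2. The brightest *CHD7* probe set, 11723354_s_at, changed by -0.24 and -0.18, with siControl at 8.36, 8.53 and 8.79 and the 6 others between 8.22 and 8.47.

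**Figure D3:**
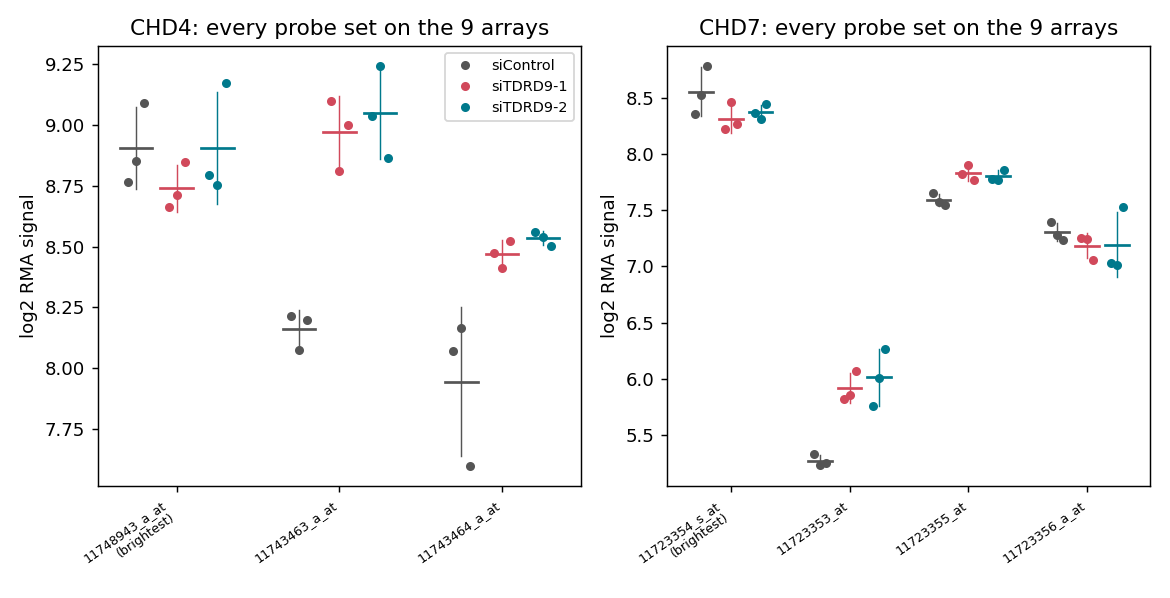
Log2 signal (vertical axis) of each *CHD4* (left) and *CHD7* (right) probe set, with 1 point per array, group mean (bar) and SD (line). One probe set of each gene rose with both siRNAs, by 0.81 and 0.89 for *CHD4* and by 0.65 and 0.74 for *CHD7*, and the brightest overlapped.

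*CHD9* had 1 probe set, 11745269_s_at, that passed with siTDRD9-2 alone, at 0.51 (adjusted p = 0.00935), beside 0.39 with siTDRD9-1 (adjusted p = 0.0358). The direct difference was 0.12 (adjusted p = 0.578), and the call was lost on leaving out any 1 array. *CHD1*, which travels with elongating polymerase, had 1 probe set, at 0.23 and 0.33, above siControl on all 6 arrays without passing (adjusted p = 0.114 and 0.0253). *CHD1L*, a remodeller switched on by poly(ADP-ribose), went both ways, at -0.13 and -0.18 at the brightest and 0.50 and 0.49 at the other (adjusted p = 0.0181 and 0.0179). *CHD2*, *CHD3*, *CHD6* and *CHD8* had no passing probe set, and *CHD5*, a NuRD ATPase of neurons, stayed under a mean log2 signal of 5 at all 3 of its probe sets.

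The 3 falls, all at the brightest probe set and with siTDRD9-1, belong to the fork-linked and transcription-linked genes. *SHPRH*, a ubiquitin ligase for PCNA, read 6.75, 6.93 and 7.10 in siControl, 6.10, 6.43 and 5.70 in siTDRD9-1, and 6.69, 6.60 and 6.49 in siTDRD9-2. Both siTDRD9 groups lay below siControl, at -0.85 for siTDRD9-1 (adjusted p = 0.00677) and at -0.33 for siTDRD9-2, which did not pass (adjusted p = 0.234). *BTAF1*, which strips TBP from DNA, read 9.01, 9.01 and 9.18, then 8.60, 8.45 and 8.40, then 8.76, 8.67 and 8.71. Its change was -0.58 (adjusted p = 0.00256) and -0.35 (adjusted p = 0.0284), with all 6 arrays below siControl. *SMARCAD1*, which acts in heterochromatin upkeep and DNA end resection, read 8.99, 9.26 and 9.40, then 8.59, 8.78 and 8.67, then 9.02, 9.03 and 8.96. It changed by -0.53 (adjusted p = 0.0099) and -0.21 (adjusted p = 0.257), and only siTDRD9-1 stood below siControl.

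Which of these falls passed depended on the arrays fitted, while their direction did not. The *SHPRH* call was lost in 7 of 9 fits that left out 1 array (changes from -0.66 to -0.94 in those fits), and the *SMARCAD1* call in 8 of 9 (-0.44 to -0.58). That of *BTAF1* was lost without siControl replicate 2 (-0.61) or siControl replicate 3 (-0.52). Averaged over all its probe sets, *SHPRH* changed by -0.36 (adjusted p = 0.12), *BTAF1* by -0.29 (adjusted p = 0.0441) and *SMARCAD1* by -0.40 (adjusted p = 0.0332) with siTDRD9-1. With siTDRD9-2 the probe sets of these genes went both ways. They ran from -0.33 to 0.49 for *SHPRH*, from -0.35 to 0.16 for *BTAF1* and from -0.21 to 0.16 for *SMARCAD1*.

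No other member in these groups passed. *TTF2*, a termination factor that releases polymerase from DNA, changed by -0.49 and -0.39 at its brightest probe set (adjusted p = 0.0439 and 0.0973). *RAD54L2*, a partner of the androgen receptor, changed by -0.38 and -0.22 (adjusted p = 0.0227 and 0.151). The brightest probe sets of *TTF2*, *BTAF1* and *RAD54L2*, the whole transcription-linked group, each had all 6 arrays below siControl. Over all genes 1808 of 18132 brightest probe sets did so. Of all 10 probe sets of the group 5 did so, while 1 was positive with siTDRD9-1 and 3 with siTDRD9-2. Among the fork-reversing enzymes, *SMARCAL1* changed by -0.31 and -0.07 (adjusted p = 0.0365 and 0.686), *ZRANB3* by 0.15 and 0.17 and *HLTF* by -0.14 and 0.00 at the brightest. *HELLS*, needed for DNA methylation at repeats, was positive at all 3 probe sets, from 0.13 to 0.35, without passing.

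The engines of BAF and of the ISWI and INO80-like complexes did not pass either. *SMARCA4*, or BRG1, changed by -0.16 to 0.16 with siTDRD9-1 and -0.04 to 0.35 with siTDRD9-2 over 6 probe sets. *SMARCA2*, or BRM, ran from -0.41 to 0.77 and from -0.42 to 0.75 over 8. Its dim probe set 11743340_a_at sat just outside the threshold, at 0.77 and 0.75 (adjusted p = 0.0106 for the latter), while its brightest stood at -0.23 and -0.34. *SMARCA5*, the ISWI motor of dividing cells, changed by 0.16 and 0.25 at the brightest, and *SMARCA1* was under a mean log2 signal of 5 at all 5 probe sets. *INO80*, *SRCAP* and *EP400*, which exchange or remove H2A.Z, changed at the brightest by -0.05, -0.15 and -0.05 with siTDRD9-1 and by 0.16, -0.22 and 0.03 with siTDRD9-2.

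The siRNAs were also compared directly. No member probe set differed at an FDR of 0.01 (0 of 102, against 1.95% of all probe sets in either direction). With array weights 10 passed, but the share of all probe sets passing this comparison in that fit was not counted. Against siControl that fit passed 18.1% of all probe sets with siTDRD9-1 and 11.3% with siTDRD9-2. An unadjusted p under 0.05 in limma was reached by 17, or 16.7%, against 20.5% of all probe sets. All 17 were higher with siTDRD9-2, a direction that 10.7% of all probe sets took at this p. Signal was higher with siTDRD9-2 at 80 of the 102 probe sets, beside 23845 of 49293 over the array, with a median difference of 0.11 against -0.01. At the brightest it was higher for 24 of the 30, beside 8203 of 18132 over all genes. The partner genes described below leaned the same way, at 57 of 77, so the lean was not particular to the family. *SMARCAD1* was higher with siTDRD9-2 at all 4 probe sets, by 0.25 to 0.55 (adjusted p from 0.0543 to 0.286), and *SHPRH* by 0.52 at its brightest (95% interval 0.16 to 0.87, adjusted p = 0.0896). For *ATRX* and *ERCC6L2* the rising probe sets differed by 0.11 to 0.20 and by 0.13 to 0.14.

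**Figure D4:**
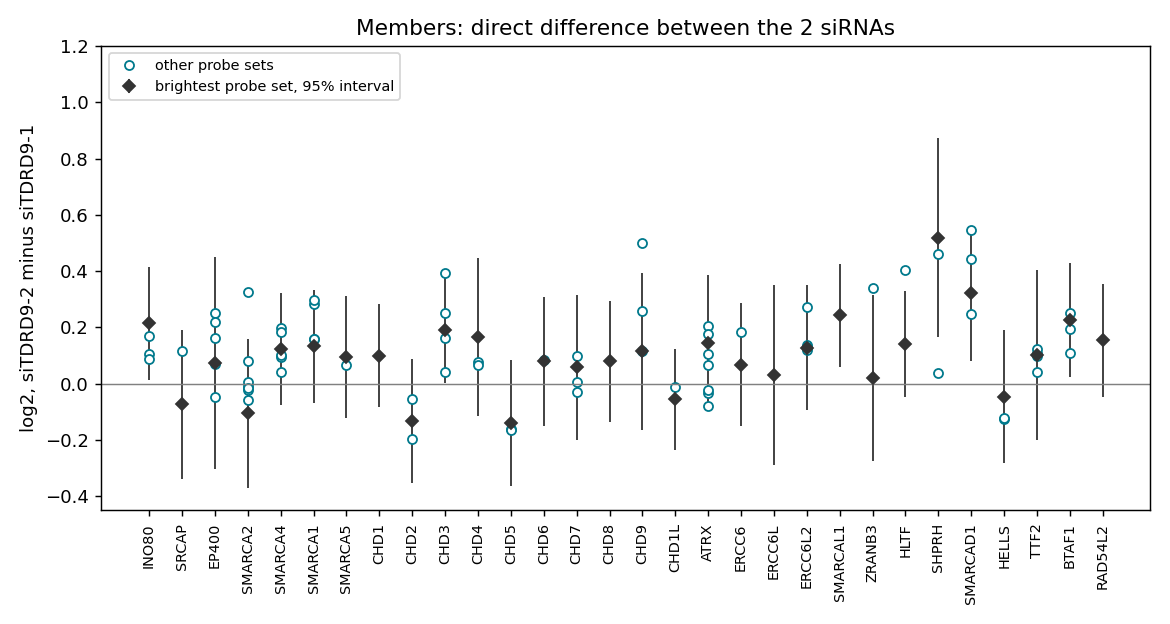
Log2 difference of siTDRD9-2 minus siTDRD9-1 (vertical axis) for the 30 genes. Diamonds are brightest probe sets with 95% intervals from limma, and circles are the others. Of the 102 points 80 lie above 0, and none passed an FDR of 0.01.

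The partners of these ATPases were read at the brightest probe set of 77 genes. Of these 1 rose and 4 fell after siTDRD9-1, while 1 rose and 2 fell after siTDRD9-2, beside 1.25% up and 2.8% down, and 1.32% up and 3.03% down, over all genes. The medians were -0.12 and -0.04, against -0.03 and -0.06 over all genes. The gene that rose with both was *BCL7A*, a BAF subunit, which read 7.02, 7.11 and 6.73 in siControl, 7.997, 8.03 and 8.10 in siTDRD9-1, and 7.96, 8.02 and 7.65 in siTDRD9-2. No array overlapped, at 2.13-fold (adjusted p = 0.000369) and 1.90-fold (adjusted p = 0.000851). The falls with siTDRD9-1 were *ARID2* (-0.54) and *SMARCD3* (-0.60) of BAF and PBAF, *GATAD2A* (-0.53) of NuRD and *MORF4L1* (-0.47) of TIP60-p400, and with siTDRD9-2 *BCL7B* (-0.70) and *SS18* (-0.62) of BAF. These 6 were named after their values were seen. With each siRNA 1 of the 24 BAF and PBAF genes rose and 2 fell, to be read beside the same shares over all genes. None of the 10 ISWI genes, the 3 genes of the *ATRX* partner and H3.3 or the pair *RAD54L* and *RAD54B* passed with either siRNA. Among these, the probe sets read for *H3-3A* and the ISWI gene *CECR2* were dim, at mean log2 signals of 1.98 and 2.88. Not passing there says little about either gene. The ISWI genes *RSF1* and *CHRAC1*, also named after their values were seen, came near. *RSF1* changed by 0.56 and 0.55 (adjusted p = 0.0111 and 0.0107) and *CHRAC1* by -0.43 and -0.32 (adjusted p = 0.0126 and 0.0401). At an unadjusted p under 0.05 in limma, 7.79% of the 77 were up and 37.7% down after siTDRD9-1 (6.99% and 16.0% over all genes), and 11.7% up and 16.9% down after siTDRD9-2 (7.5% and 16.0%). *DAXX*, the partner of *ATRX*, changed by -0.06 and 0.14.

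**Figure D5:**
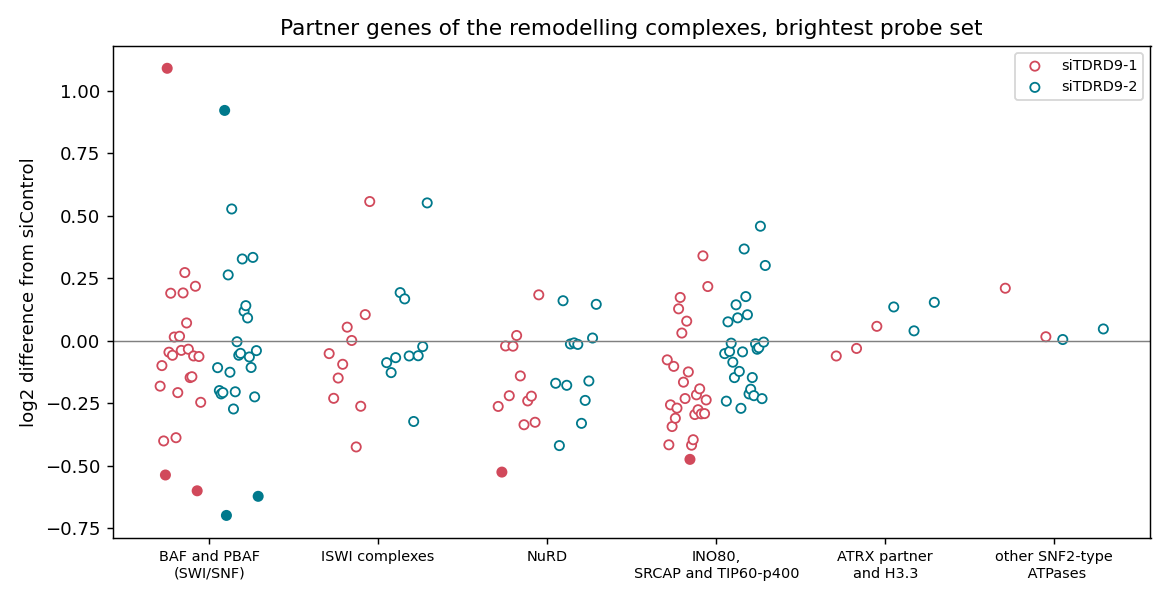
Log2 difference from siControl (vertical axis) at the brightest probe set of each of 77 partner genes, by complex, for siTDRD9-1 (red) and siTDRD9-2 (blue). Filled points passed an FDR of 0.01, and *BCL7A*, at 1.09 and 0.92, is the 1 gene filled with both.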

How the data were processed

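The authors deposited 1 table of log2 values from 9 PrimeView arrays, made by RMA per the labels and the study's methods. The submitters' processing notes also name Affymetrix Expression Console. No version or genome build is given in the sources used here. From these log2 values, 102 control probe sets of 49395 were set aside and the rest were named from the platform annotation, where 1832 match several genes and 2473 none. All 3 groups were fitted together in limma 3.58.1 (R 4.3.3) with Benjamini-Hochberg adjustment. Arrays were of independent cultures, and their number limits the precision. Array medians were 5.75 to 5.80. Spike-ins were compared by exact permutation. Full values are given for genes with a probe set called at 2-fold with either siRNA or passing with both, for partners passing with both, and for *TDRD9*, while *SHPRH*, *BTAF1* and *SMARCAD1* were added after their values were seen. The members and lists were chosen with earlier results of these data known. The fit was tested on simulated data. Alternatives covered the samples fitted, a replicate block, an intensity trend, array weights, scaling, a signal filter, a spike-in covariate, thresholds, probe set choice and each array left out.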

Additional observations from a re-analysis of the deposited data

Results flagged for a closer look

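The direct comparison of the siRNAs passed an FDR of 0.01 in limma for *TDRD9*, which was higher with siTDRD9-2 by 1.48 on the log2 scale (adjusted p = 0.000426), and for 2 partner genes. *BCL7B* differed by -0.65 (adjusted p = 0.00312), with siControl at 8.62, 8.65 and 8.75, siTDRD9-1 at 8.65, 8.59 and 8.66, and siTDRD9-2 at 7.84, 7.93 and 8.16. *MORF4L1*, a chromodomain subunit of TIP60-p400, differed by 0.58 (adjusted p = 0.00438), with 12.13, 12.12 and 12.28, then 11.59, 11.81 and 11.71, then 12.35, 12.23 and 12.27. Among the control probe sets, the 3′ probe set of 18S rRNA, which no fit used, was 1.48 higher on the siTDRD9 arrays, at 13.08 to 13.87 against 11.29 to 12.36 in siControl. The 5′ probe set of 18S rRNA overlapped, at 14.05 to 14.25 on the siTDRD9 arrays against 13.4 to 14.06 in siControl.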

How the results depend on the processing

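Each alternative changed 1 choice, save 1 that moved the fold and FDR limits together, and the partner counts were added to the alternatives after seeing the data. Member probe sets passing with siTDRD9-1 (10) numbered 34 with array weights, 20 at an FDR of 0.05, 0 with the spike-in covariate and 6 to 9 with 1 array left out. With siTDRD9-2 (8) they numbered 18, 14, 0 and 6 to 8. Genes called at 2-fold with both siRNAs (2) became 0 with the covariate, and 5 when 1.5-fold and an FDR of 0.05 were the limits, and *ATRX* and *ERCC6L2* were the pair called at 2-fold in all other fits of single probe sets. Counts over all 49293 probe sets moved as well. With siTDRD9-1, 2237 passed in the main fit, 8898 with array weights and 3373 with an intensity trend. The covariate fit passed 1, and fits with 1 array left out 762 to 2478. With siTDRD9-2 these counts were 2556, 5583, 3940, 0 and 1088 to 2706. Probe sets passing over the whole array at an FDR of 0.05, and genes passing over the whole array in the alternatives, were not counted. Partner genes with siTDRD9-1 (5) numbered 3 with only the groups compared, 3 with the replicate block, 11 with an intensity trend, 23 with array weights, 9 with the signal filter, 0 with the covariate and 2 to 5 with 1 array left out. With siTDRD9-2 (3) they numbered 9 with a trend, 9 with array weights, 6 with the filter, 0 with the covariate and 2 to 3 with 1 array left out. *TDRD9* with siTDRD9-1 was -2.24 with the covariate, not passing (1 array left out, -2.01 to -2.34). With siTDRD9-2 it was -0.70 with the replicate block, -0.67 with cyclic loess and -0.76 with the covariate, none passing, and -0.63 to -0.77 with 1 array left out. Averaging all probe sets in place of the brightest turned *CHD4* to 0.39 and *ERCC6L2* to 0.47 with siTDRD9-1. The causes were not tested, except that fits with fewer arrays have less to estimate the spread from. Of 596 values of single probe sets, 510 kept direction and side of the threshold, 11 turned sign without a call in either fit, 67 lost the call, 6 gained one and 2 turned sign with a call. Arrays of the same replicate number did not deviate together (correlations -0.15 to 0.15 in 9 pairs). The study's methods name 3 independent transfection experiments, but whether a number marks 1 of them is not given in the sources used here. With the replicate number as a block, 9 member probe sets passed with siTDRD9-1 and 7 with siTDRD9-2. Dim probe sets, those with a mean log2 signal under 5, were 24 of the 102 and leave small changes hard to measure.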
